A study of Mus musculus with 6 samples.

Results

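Guanylate-binding proteins (GBPs) and immunity-related GTPases (IRGs) were examined in cultured mouse pancreatic fibroblasts. The group was set by a list of 9 gene symbols, Gbp2, Gbp3, Gbp4, Gbp7, Gbp9, Igtp, Irgm1, Irgm2 and Iigp1, matched exactly to the symbols in the deposited count table. Of the 9, 8 had a row among the 14831 genes of the table. Gbp4 had no row, by symbol or by identifier, and is not analysed here. RNA was sequenced from 6 wells of immortalized fibroblasts of mixed strain, 3 labelled WT and 3 labelled KO, the latter with the genotype Gli2-/-;Gli3-/-. GLI2 and GLI3 are transcription factors of the Hedgehog pathway. According to the study's methods, fibroblast lines were grown out of the pancreas of adult mice with floxed Gli alleles and immortalized. Both kinds of line received an adenovirus for GFP, control lines also a lentivirus for dsRed and KO lines also an adenovirus for Cre, and infected cells were sorted by flow cytometry. Genotype and the second virus therefore cannot be told apart, and the replicates are wells grown to confluence, so the p-values measure the spread between wells and not between animals or separately made lines. No age, sex or cytokine treatment is given in the labels for either group, and the growth medium held calf serum and antibiotics in both.

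GBPs and IRGs are cell-autonomous defence proteins. Interferons, interferon-gamma above all, raise their transcription through JAK-STAT signalling, which acts at short motifs named gamma-activated sequences (GAS) and interferon-stimulated response elements (ISRE). GBPs are large GTPases related to dynamins that gather on the vacuoles of intracellular parasites and bacteria, and IRGs are smaller GTPases that act on the same vacuoles in mice. Within the IRGs, Irgm1, Irgm2 and Igtp (also called Irgm3) are regulators that sit on the cell's own membranes and keep the effector IRGs, such as Iigp1 (Irga6), inactive there.

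The promoters of the members are shown first because interferon control runs through short motifs close to the start of transcription. RefSeq's promoter table for GRCm38.p6 had an entry for 6 of the members. Below are the 120 bases directly before the RefSeq start, read from 5′ to 3′ on the gene's own strand, with matches to either motif in capitals. The motifs searched on both strands were GAAANNGAAA with its reverse complement TTTCNNTTTC, of the ISRE type, and TTCNNNGAA, of the GAS type, which reads alike on both strands. Gbp2 lies at chr3:142620543-142620662 on the plus strand, Gbp3 at chr3:142559924-142560043 on the plus strand, Gbp7 at chr3:142530216-142530335 on the plus strand, Igtp at chr11:58199436-58199555 on the plus strand, Irgm2 at chr11:58214857-58214976 on the plus strand and Irgm1 at chr11:48871421-48871540 on the minus strand.
Gbp2: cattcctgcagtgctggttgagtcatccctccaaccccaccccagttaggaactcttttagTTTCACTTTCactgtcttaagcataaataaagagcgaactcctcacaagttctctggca
Gbp3: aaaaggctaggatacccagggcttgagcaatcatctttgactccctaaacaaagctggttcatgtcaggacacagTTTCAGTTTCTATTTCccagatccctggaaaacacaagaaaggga
Gbp7: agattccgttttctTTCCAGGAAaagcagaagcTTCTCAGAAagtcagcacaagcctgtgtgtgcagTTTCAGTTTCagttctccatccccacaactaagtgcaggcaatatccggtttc
Igtp: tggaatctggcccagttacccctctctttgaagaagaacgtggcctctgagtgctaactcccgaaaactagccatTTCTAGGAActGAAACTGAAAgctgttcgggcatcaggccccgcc
Irgm2: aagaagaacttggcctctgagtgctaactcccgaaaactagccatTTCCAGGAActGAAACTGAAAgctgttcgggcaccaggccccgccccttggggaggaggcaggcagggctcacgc
Irgm1: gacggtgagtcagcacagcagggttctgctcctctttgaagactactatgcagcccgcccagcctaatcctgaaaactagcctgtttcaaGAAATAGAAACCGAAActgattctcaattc

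Each of these 6 members held the ISRE-type letters in the window of 300 bases around a start, against 3.44% of all 32851 promoters of the table. The first base of the match lay 59 bases before the start in Gbp2, 53 in Gbp7, 34 in Igtp and 64 in Irgm2. In Gbp3 and in Irgm1 a pair of matches overlapped, at 45 and 39 bases in Gbp3 and at 30 and 24 bases in Irgm1. A second listed start of Gbp3 had no match. GAS-type letters were present in 3 of the 6, Gbp7, Igtp and Irgm2, against 8.3% of all promoters, and both motifs together occur in 0.454% of all promoters. In Igtp and Irgm2 the GAS-type match stood directly upstream of the ISRE-type match, at 45 and 75 bases before the start, and in Gbp7 matches lay at 106 and 87 bases. The upstream sequences of Igtp and Irgm2 were 60.9% identical over 220 bases, while the other 14 pairs among the 6 were between 33.3% and 38.8% identical at their best ungapped alignment. A match describes letters only and is not a site or a cause. Gbp4, Gbp9 and Iigp1 are named here without a promoter sequence.

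The 3 libraries labelled WT held between 31728420 and 33905521 counts and the 3 labelled KO between 32781730 and 41035931, so that 3 counts correspond to 0.0720 to 0.0957 CPM, the unit of counts scaled to a common library size. Gli2 and Gli3 serve as a check of the labels. Gli2 had 809, 944 and 868 counts in labelled WT against 1932, 2316 and 1926 in labelled KO, and Gli3 had 392, 416 and 398 against 1434, 1637 and 1404. Both were higher in the wells labelled KO, which goes against the genotype in the labels. The study screened its lines for recombination by qPCR and western blot and reports deletion of Gli2 and Gli3 in its KO lines. It also reports that these KO lines did not respond to Hedgehog stimulation. These are separate measurements not analysed here, and whether labels were exchanged between libraries was not tested. Counts over a whole gene also include exons outside a floxed part, so each direction below is one between wells as labelled. Of 12 fibroblast markers 10 had a row, with Col1a1, a fibrillar collagen chain, at 531870, 523815 and 489502 against 584089, 653551 and 533452 counts. Of 16 macrophage, lymphocyte and NK cell markers, cells with high GBP and IRG expression, 5 had a row, 11 including Ptprc, the pan-leukocyte CD45, had none, and their summed level was 55.8 to 60.9 CPM in labelled WT and 52.8 to 54.5 in labelled KO. None of 6 endothelial markers had a row.

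Genes were tested with edgeR's quasi-likelihood test and called at a Benjamini-Hochberg adjusted p under 0.05 over the 14289 genes tested and a change of at least 1.5-fold. All 8 members in the table were tested. Of these, 6 were lower in labelled KO (Gbp3, Gbp7, Gbp9, Igtp, Irgm2 and Iigp1) and 0 were higher, against a background of 6.1% of all tested genes called lower, 11.6% called higher and 17.7% called in either direction. At an unadjusted p under 0.05 in edgeR 7 were lower and 0 higher, and DESeq2 and limma-voom each called 6 lower and 0 higher. The median log2 fold change of the members was -1.05, beside 0.00 for all tested genes. By adjusted p alone 7 members were lower, all but Irgm1, where 28.8% of all genes were lower and 58.7% changed in either direction. The CPM of the groups did not overlap for the same 7 members, with labelled KO below labelled WT, as was the case for 31.3% of all tested genes. At a limit of 2-fold, which 2.83% of all genes passed on the lower side, 5 members remained. In bulk RNA, fewer cells that express a gene and less RNA per cell cannot be told apart.

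**Figure D1:**
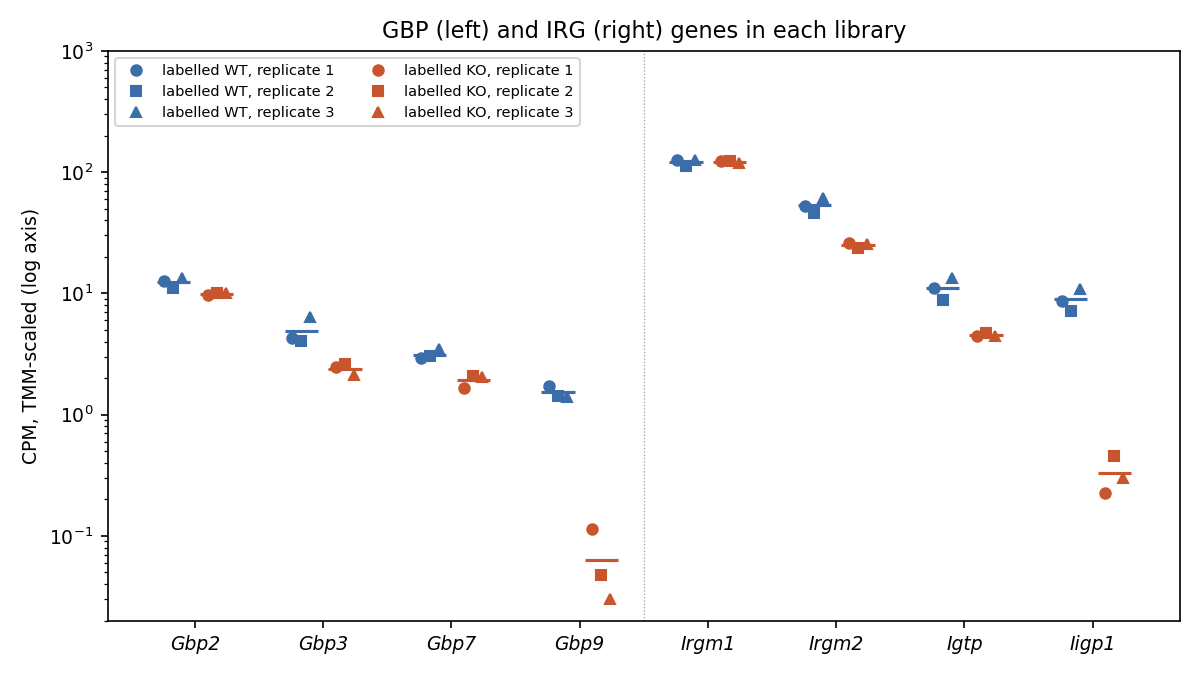
CPM (TMM-scaled, log axis) of the 8 members in each of the 6 libraries, with GBPs left and IRGs right of the dotted line; symbols mark the replicate, blue is labelled WT, red is labelled KO, and short bars are group means. Gbp9 and Iigp1 have the widest gap between groups, and the groups overlap for Irgm1.

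The regulators among the IRGs differed from each other. Irgm1, which protects host membranes and is needed for defence against mycobacteria, had 3969, 3749 and 3983 counts in labelled WT and 4357, 5145 and 3882 in labelled KO. This was 121 ± 8.01 CPM against 121 ± 3.27 (SD, n = 3 each). The groups overlapped, and the log2 fold change of 0.00 had a 95% interval of -0.09 to 0.10 (edgeR adjusted p = 0.95). Irgm2, a regulator found at the Golgi, had 1652, 1532 and 1954 counts against 922, 980 and 837. Every well labelled KO was below every well labelled WT, with 53.2 ± 7.75 CPM against 25.0 ± 1.30 and a log2 fold change of -1.09 (SE 0.09, edgeR adjusted p = 2.75e-07). Igtp, a regulator at the endoplasmic reticulum, had 346, 297 and 431 counts against 158, 195 and 146. The groups were again apart, at 11.1 ± 2.32 and 4.52 ± 0.138 CPM, and Igtp fell by 1.29 on the log2 scale (SE 0.13, edgeR adjusted p = 3.62e-06).

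Iigp1, the effector that loads onto parasite vacuoles and breaks them, was lower by a far wider margin. It had 270, 241 and 349 counts in labelled WT against 8, 19 and 10 in labelled KO. The wells labelled KO were all far below those labelled WT, at 0.328 ± 0.117 CPM against 8.91 ± 1.89. The log2 fold change was -4.71 (SE 0.24, edgeR adjusted p = 4.09e-09). The summed counts, 860 against 37, gave a ratio of 26.4 after scaling, with an exact interval of 19.0 to 37.8 that covers counting error only. A log2 fold change of -4 or lower was reached by 35 genes, 0.245% of those tested, and Iigp1 and Gbp9 were among them.

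Among the GBPs, Gbp9 was the member with the fewest counts. It had 54, 48 and 45 counts in labelled WT and 4, 2 and 1 in labelled KO, so that the wells labelled KO lay at or near the floor of 3 counts. Summed counts of 147 and 7 gave a scaled ratio of 23.9 with an exact counting interval of 11.3 to 60.5, and the fitted log2 fold change was -4.50 (SE 0.34, edgeR adjusted p = 1.96e-07), a value that depends on the prior count at such low levels. Gbp9 shares 120 exon bases with Gbp4 and Gbp8, neither of which had a row. Gbp3 had 135, 135 and 202 counts against 88, 108 and 70. Its groups were apart, at 4.89 ± 1.25 and 2.40 ± 0.247 CPM, although the third well labelled WT was well above the other two, and the log2 fold change was -1.02 (SE 0.17, edgeR adjusted p = 2.36e-04).

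Gbp7, linked in macrophages to the assembly of the phagocyte oxidase on vacuoles, had 91, 101 and 110 counts in labelled WT and 59, 86 and 67 in labelled KO. In CPM the groups did not overlap, with 3.12 ± 0.286 and 1.92 ± 0.220 and a log2 fold change of -0.70 (SE 0.14, edgeR adjusted p = 7.57e-04). Of its exon bases, 637 lie in a pseudogene on the same strand, Gm43802, so reads there cannot be assigned to Gbp7 alone. Gbp2, a prenylated GBP that coats the vacuole of Toxoplasma, had 395, 371 and 423 counts against 340, 417 and 331. Its levels of 12.3 ± 1.12 and 9.88 ± 0.240 CPM were also apart, but the difference was 1.24-fold, under the limit for a call, with a log2 fold change of -0.32 (SE 0.08, 95% interval -0.48 to -0.15, edgeR adjusted p = 0.00315).

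Per kilobase of exon, the members of labelled WT ranked from Irgm1 at 20.8 CPM per kb through Irgm2 at 14.4, Igtp at 5.51, Gbp2 at 4.89, Iigp1 at 1.53, Gbp3 at 1.5 and Gbp7 at 0.556 to Gbp9 at 0.294. Neighbours in this order overlapped between wells for Igtp and Gbp2, at 4.39 to 6.68 and 4.40 to 5.27 CPM per kb, and for Iigp1 and Gbp3, at 1.24 to 1.88 and 1.23 to 1.94. In labelled KO the order was Irgm1 at 20.9, Irgm2 at 6.77, Gbp2 at 3.93, Igtp at 2.24, Gbp3 at 0.735, Gbp7 at 0.342, Iigp1 at 0.0564 and Gbp9 at 0.0123 CPM per kb. Iigp1 thus moved from a level like that of Gbp3 to below Gbp7, and Igtp from a level like that of Gbp2 to below it.

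Ratios between members were also taken within each library, where scaling between libraries cannot change them. Irgm2 counts were 41.6%, 40.9% and 49.1% of Irgm1 counts in labelled WT and 21.2%, 19.0% and 21.6% in labelled KO. Iigp1 counts were 6.80%, 6.43% and 8.76% of Irgm1 counts against 0.184%, 0.369% and 0.258%, and Igtp counts 8.72%, 7.92% and 10.8% against 3.63%, 3.79% and 3.76%. Relative to Irgm1, transcripts of the effector and of the other regulators were thus lower in each well labelled KO. With Gbp2 as the reference, Gbp9 went from 13.7%, 12.9% and 10.6% to 1.18%, 0.480% and 0.302%, Gbp3 from 34.2%, 36.4% and 47.8% to 25.9%, 25.9% and 21.1%, and the log2 ratio of Gbp7 to Gbp2 differed by -0.39. All 6 ratios were lower in each well labelled KO than in any labelled WT. The exact two-sided permutation test gave p = 0.1 for each ratio, the smallest that 3 against 3 allows, and 0.1 after Benjamini-Hochberg adjustment over the 6. The references, Irgm1 and Gbp2, were the members not called, and the others were already known to be lower. These ratios thus restate the fold changes above and add no separate evidence.

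The members sit in gene clusters together with relatives. The list of other GBP, IRG and very large inducible GTPase genes held 25 symbols, of which 16 had a row and 14 were tested. Of the 14, 8 were lower in labelled KO and 0 higher, with a median log2 fold change of -0.67. With the members, 14 of 22 tested genes of these families were lower and 0 higher in edgeR, in DESeq2 and in limma-voom, and 1, Irgq, was higher at an unadjusted p under 0.05. In edgeR 6.1% of all 14289 tested genes were called lower and 11.6% higher. DESeq2 called 798 of all genes lower and limma-voom 876. The relatives with the widest difference were both on chromosome 18, beside Iigp1. Gm4951 had 124, 126 and 192 counts against 12, 7 and 7, a scaled ratio of 19.3 with an exact counting interval of 13.0 to 29.9. F830016B08Rik had 27, 40 and 39 counts against 1, 1 and 4, a ratio of 20.1 with an interval of 8.94 to 56.0. Neither gene had wells that overlapped between groups.

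Other relatives that fell were Gbp6 (60, 68 and 71 against 29, 22 and 23 counts, log2 fold change -1.61), 9930111J21Rik2 (-1.46), Gbp2b (-0.88, the mouse Gbp1), the effector IRGs Tgtp1 (-0.79) and Tgtp2 (-0.61), and 9930111J21Rik1 (-0.73). Several of them cannot be counted cleanly. Only 29.35% of the stretches of 50 bases in Gbp6 exons occur in no other gene's exons, 18.77% in Tgtp1, 13.43% in Tgtp2, 16.79% in 9930111J21Rik1 and 40.25% in 9930111J21Rik2, whereas the share was 87.26% to 99.62% in the members, so the values of these relatives are uncertain. Relatives that were not called had log2 fold changes of -0.51 for Gvin1, -0.42 for Gm4070, -0.35 for Gbp11, -0.27 for Ifi47 (Irgd), -0.03 for Gm12185 and 0.15 for Irgq. Of the stretches of 50 bases, only 0.84% in Gvin1 and 2.22% in Gm4070 occur in no other gene's exons. Gm12250 (Irgb10) had 10, 7 and 5 counts against 4, 4 and 6, and Gm8995 had 14, 6 and 16 against 4, 10 and 8, both too low to be tested. Mx2, an interferon-induced antiviral relative among the dynamin-like GTPases, had 113, 101 and 140 counts against 63, 69 and 46 and a log2 fold change of -1.18, and Mx1 had no row.

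**Figure D2:**
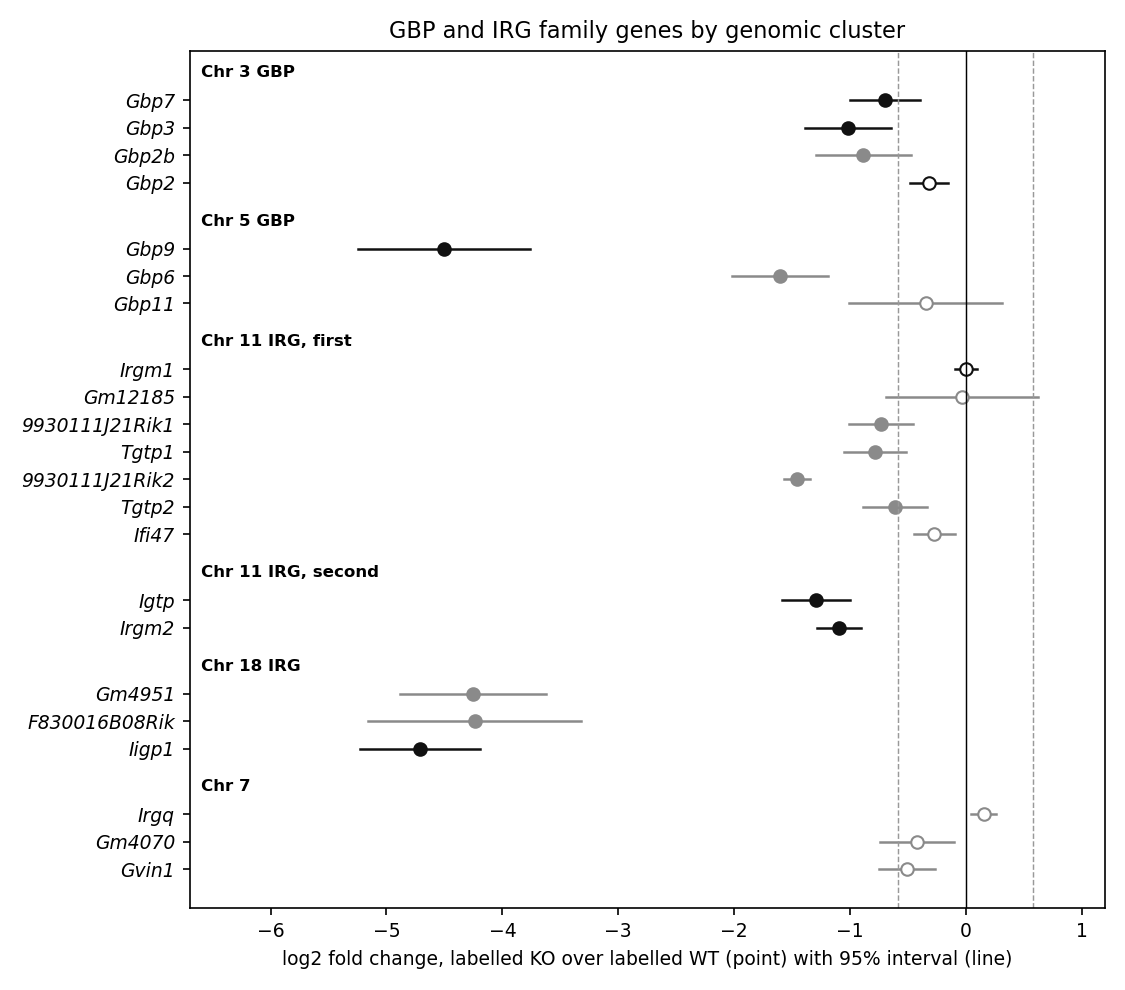
Log2 fold change, labelled KO over labelled WT, with its 95% interval for each tested gene of the GBP and IRG families, grouped by gene cluster. Black points are members and grey points relatives, filled points were called and open points were not, and the dashed lines mark 1.5-fold; the 3 genes of the chromosome 18 cluster and Gbp9 lie farthest to the left.

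By position, differences were unequal between and within clusters. In the GBP cluster on chromosome 3 (chr3:142530342-142638008), which holds Gbp7, Gbp3, Gbp2b and Gbp2, 3 of 4 tested genes were lower, with log2 fold changes between -1.02 and -0.32. In that on chromosome 5 (chr5:105077630-105346472), which holds Gbp9, Gbp6 and Gbp11, 2 of 3 were lower, between -4.50 and -0.35. Irgm1 lies in the first of the chromosome 11 IRG clusters (chr11:48861968-49096974), where 4 of 7 were lower, between -1.46 and 0.00, and Igtp and Irgm2 in the second (chr11:58187739-58222782), where both were lower. The chromosome 18 cluster (chr18:60212080-60392634) had 3 of 3 lower, between -4.71 and -4.24. No gene of these clusters was called higher. Over all tested genes the shares were 6.1% called lower and 11.6% called higher. Positions are from GENCODE M21 on GRCm38. In that annotation Igtp (chr11:58199556-58207591, plus strand) and Irgm2 (chr11:58199618-58222782, plus strand) share 162 exon bases, so a small part of their reads cannot be assigned to either.

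Tested genes outside the lists of members and relatives on either side of each cluster were listed after the values of the members had been seen. Next to the chromosome 18 cluster 3 of 6 were lower, BC023105 with a log2 fold change of -2.25 at 49.1 kb, which shares stretches of 50 bases with Gm4841, an IRG gene of the cluster without a row, and so may not be a gene apart from the family, Dctn4, a dynactin subunit, with -0.60 at 134 kb, and Fbn2, a fibrillin, with -2.95 at 2002 kb. All 6 of these neighbours had a log2 fold change below 0, from -2.95 to -0.29. By edgeR's adjusted p alone Isoc1 (-0.38, adjusted p = 8.14e-05) and Smim3 (-0.31, 0.0190) were lower too. Chsy3 (-0.29, 0.355) was not. On that measure 28.8% of all tested genes were lower. Next to the other 4 clusters no neighbour was called lower, and 3 of 25 were called higher, Bmpr1b, Lrrc8d and Flt4. Of all tested genes 6.1% were called lower and 11.6% higher, so the counts beside these 4 clusters are near the shares of all genes. The part of the region in the values of Iigp1 and its relatives was not tested.

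Members also varied together between wells of a group. The third well labelled WT had the highest level in labelled WT for 6 of 8 members, all but Gbp9 and Irgm1, for 10 of 14 relatives and for 31 of 32 antiviral interferon-induced genes, against 33.2% of all tested genes. Averaged over the 6 members with at least 10 counts in each library, the deviation from the group mean of log2(CPM + 0.5) was -0.02, -0.17 and 0.19 in labelled WT and -0.01, 0.03 and -0.02 in labelled KO. The mean of these members was thus spread more widely over the wells labelled WT than over those labelled KO, although Gbp7 on its own was not. Without the third well labelled WT all 6 members were still called. Over the 6 libraries, which share their scaling, the deviations of Igtp followed the mean of the other members most closely (Pearson's r = 0.99), followed by Gbp2 (0.89), Gbp3 (0.84), Irgm2 (0.82), Irgm1 (0.66) and Gbp7 (0.44).

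**Figure D3:**
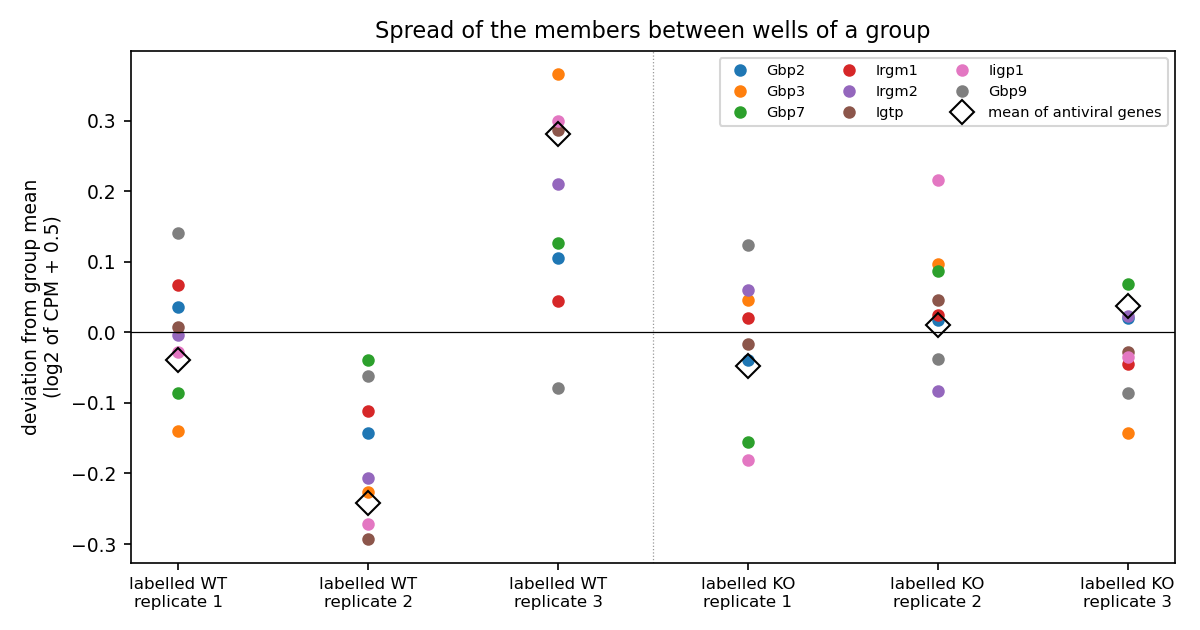
Deviation of log2(CPM + 0.5) from the group mean (vertical axis) in each of the 6 libraries for the 8 members (coloured points) and the mean of the antiviral interferon-induced genes (diamonds). In the third well labelled WT all members but Gbp9 lie above their group mean, and in the second all 8 lie below it.

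The tested genes outside the members whose deviations were most like the mean of the members were Ccdc149, Scg2, Ccdc138, Frg1, Akna, Adh7, Lgals3bp, Fchsd1, Gxylt1 and Gm49797, with Pearson's r between 0.987 and 0.998 over 6 libraries. So few libraries give many such likenesses, and 202 tested genes had an r over 0.9. None of the 10 was in the interferon lists, and their log2 fold changes between groups went from -0.60 for Lgals3bp to 6.24 for Adh7. As whole lists, however, interferon-induced genes were like the members. The median r with the mean of the members was 0.90 for the 32 tested antiviral genes and 0.71 for the 14 tested relatives. It was 0.54 for the 19 tested MHC class I genes and -0.01 for all tested genes.

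The members are induced through interferon receptors, JAK kinases, STATs and IRFs. Of 26 tested interferon signalling genes, 2 were lower in labelled KO and 2 higher, with a median log2 fold change of 0.05. That is 15.4% called, beside 17.7% of all tested genes. The interferon-gamma receptor chains Ifngr1 and Ifngr2 had log2 fold changes of -0.15 and 0.15, and the type I receptor chains Ifnar1 and Ifnar2 had 0.05 and 0.12. Downstream, the kinases Jak1 and Jak2 had 0.02 and 0.48, and Stat2, a subunit of the complex that binds ISRE motifs, had -0.52. The transcription factors Irf1, Irf8 and Irf9 had -0.00, -0.39 and -0.44, and Nlrc5, the activator of MHC class I genes, had 0.12. None of these 11 genes was called by edgeR, as each estimate was under 1.5-fold. By edgeR's adjusted p alone Jak2 (3.70e-07), Ifngr2 (0.00301) and Ifnar2 (0.0166) were higher. Stat2 (4.61e-05), Irf9 (2.49e-04) and Ifngr1 (7.98e-04) were lower by it. The intervals of Irf8 (9 to 16 counts, -1.09 to 0.30) and Nlrc5 (15 to 27 counts, -0.48 to 0.73) reached past 1.5-fold. In the whole list 7 of 26 were lower and 10 higher on that measure. Of all tested genes 28.8% were lower and 58.7% changed in either direction.

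Those called in the signalling list were Usp18, a feedback inhibitor of the type I interferon receptor (229, 198 and 331 counts against 26, 46 and 35, log2 fold change -3.01), Irf7, the type I interferon amplifier (-1.77), Irf5 (1.08) and the phosphatase Ptpn6 (1.78). Transcripts for the ligands interferon-gamma and interferon-beta, Ifng and Ifnb1, had no row. Of 32 tested antiviral interferon-induced genes, which are neither GBPs nor IRGs, 17 were lower and 1 higher, with a median log2 fold change of -0.79. Over all tested genes 6.1% were called lower and 11.6% higher. Those with the largest fall were Ifi27l2a (-3.80), Ifi44 (-3.53) and Trim30a (-3.26), and the RNA sensor Ifih1 was higher (112, 93 and 113 counts against 487, 612 and 527, log2 fold change 2.17). Genes of MHC class I presentation, also induced by interferon-gamma, had 1 of 19 lower, H2-T22 (-0.64), and 3 higher, H2-T23 (1.00) and the immunoproteasome subunits Psmb9 (0.69) and Psmb8 (0.65). That is 21.1% of the MHC class I list called, beside 17.7% of all tested genes. Without the fold limit the balance was the other way, with 11 of the 19 lower and 3 higher by edgeR's adjusted p and a median log2 fold change of -0.14. Of all tested genes 28.8% were lower and 58.7% changed in either direction on that measure.

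**Figure D4:**
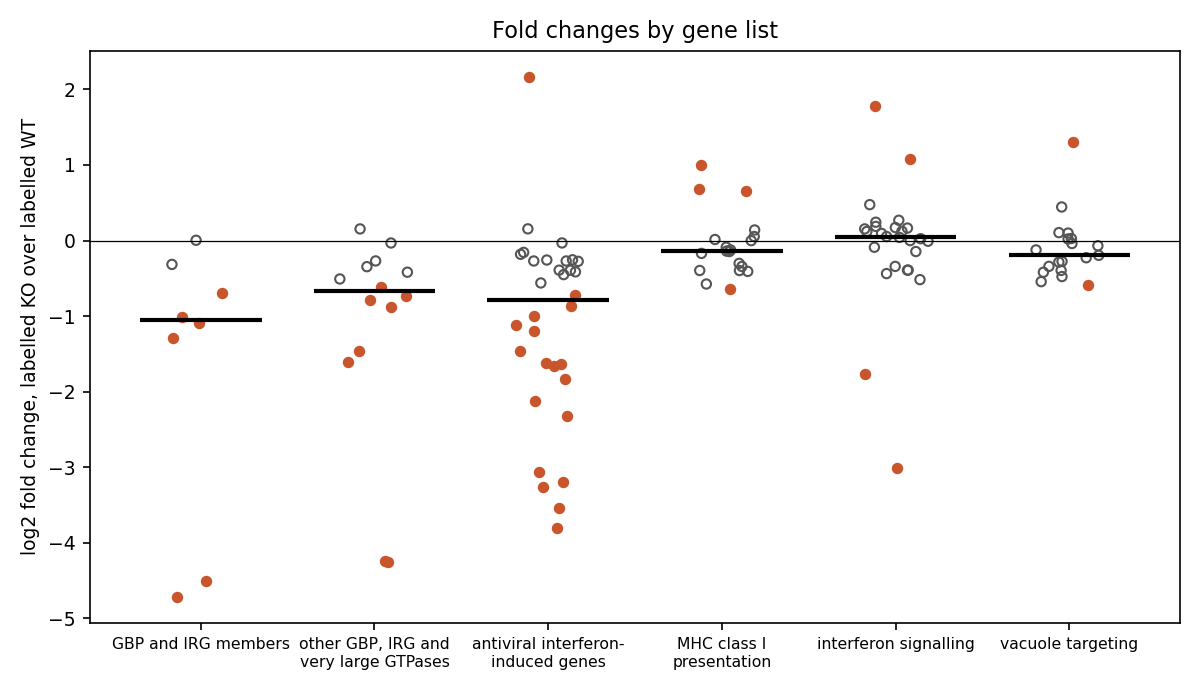
Log2 fold change, labelled KO over labelled WT, of each tested gene in the members and 5 other lists, with filled points for called genes, open points for the rest and a bar at each list's median. The members and the antiviral genes have medians of -1.05 and -0.79, and the interferon signalling genes have 0.05.

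Genes whose products act with GBPs and IRGs were counted as well. Of 19 genes for ATG8 conjugation, ubiquitin tags and adaptors that place GBPs and IRGs on vacuoles, 1 was lower, Atg12 (-0.59), and 1 higher, Lgals3, which binds sugars exposed on broken vacuoles (1.31). That is 10.5% called, beside 17.7% of all tested genes. Without the fold limit 11 were lower and 3 higher by edgeR's adjusted p, with a median log2 fold change of -0.20. Of all tested genes 28.8% were lower and 58.7% changed in either direction on that measure. None of 6 genes for prenylation, the lipid anchor of Gbp2, was called by edgeR, DESeq2 or limma-voom, against 17.7% of all genes tested by edgeR, and at an unadjusted p under 0.05 in edgeR 2 were lower and 1 higher. Of 12 inflammasome genes, which act with GBPs in cell death, 7 had no row and 5 were tested. Il18 (2.67) and the pore former Gsdmd (0.60) were higher and 0 were lower. That is 40% of the 5 called, beside 17.7% of all tested genes. By edgeR's adjusted p alone 2 of the 5 were lower and 2 higher, with a median log2 fold change of -0.13. Among 11 dynamin-like relatives, Mx2 and the dynamin Dnm1 (-0.83) were lower and 0 were higher in edgeR, DESeq2 and limma-voom, with 2 higher at an unadjusted p under 0.05 in edgeR. In edgeR 18.2% of them were thus called, near the 17.7% of all tested genes.

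Markers of cell types also moved with the labels. Of 9 tested fibroblast markers, 5 were lower, among them Lum (-5.60), Dcn (-1.55) and Col3a1 (-0.94), and S100a4 was higher (1.67). Beside them stand 6.1% of all tested genes called lower and 11.6% called higher. Thy1, too low to be tested, had 4, 1 and 0 counts in labelled WT against 19, 15 and 9 in labelled KO. The summed level of the 10 fibroblast markers in the table was 44836 to 47249 CPM in labelled WT and 36791 to 38541 in labelled KO. Of 4 tested epithelial markers, 3 were higher, against 11.6% of all tested genes: Krt7 (2.40), Cdh1 (1.08) and Cela1 (0.87). The fourth, Sox9, was at -0.50 with edgeR adjusted p = 1.73e-04, under the fold limit. The summed level over the 5 in the table was 20.2 to 22.7 against 44.0 to 45.5 CPM. None of the 5 immune markers with a row was called by edgeR, DESeq2 or limma-voom, against 17.7% of all genes tested by edgeR. At an unadjusted p under 0.05 in edgeR 2 of the 5 were lower and 1 higher. The part of these markers in the values of the members was not tested.

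The ISRE-type letters that the members share were also read against the calls over the whole table. Of 10339 tested genes with a promoter entry, 5.19% were lower and 11.3% higher. Of the 374 with ISRE-type letters, 11.5% were lower and 12.3% higher, and without the members and their relatives 9.64% of 363 were lower. Of the 844 with GAS-type letters, 5.21% were lower and 11% higher, close to the shares of all genes with an entry, and without the families 4.65% of 838 were lower. With both motifs there were 47 genes, of which 17% were lower and 6.38% higher. Without the families 7.32% of 41 were lower and 7.32% higher. Irgm1 and Gbp2, which were not called, carry ISRE-type letters close to their starts, as do Gbp3, Gbp7, Igtp and Irgm2, which fell. Of 12 relatives with a promoter entry 8 held ISRE-type letters in the window. Among those tested, Gbp2b, Tgtp1, Tgtp2 and 9930111J21Rik1 held them and fell, while Gm12185 held both motifs and was at -0.03. Neither motif was found for 9930111J21Rik2, which fell (-1.46), nor for Ifi47 and Irgq, which were not called.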

How the data were processed

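Groups were taken from the genotype in the sample labels, and replicates were numbered in accession order. The authors deposited raw counts of reads per gene and log2 CPM values made with limma. Per the labels' processing notes, STAR 2.7.2b, featureCounts and GRCm38.p6 were used, and whether counting used strand is not given in the sources used here. The libraries were made from polyadenylated RNA. Of the 14831 genes, 1165 had no symbol and 14822 matched GENCODE M21, which gave positions and exon lengths. Counts were fitted with edgeR 4.0.16 in R 4.3.3 (TMM scaling, filterByExpr, quasi-likelihood F test, Benjamini-Hochberg adjustment over all 14289 genes tested). Standard errors were derived from each log2 fold change and the F statistic of its test. The fit was tested on simulated data. Ratios within a library used 0.5 counts as a pseudocount on the log2 scale, and deviations between wells 0.5 CPM. Replicates were distinct libraries: between pairs within groups, chi-square was 2.50 to 7.74 for each degree of freedom. Intervals on counts cover counting error only.

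The members and all gene lists were chosen with earlier results of these data known. Named were all members, their relatives in the table with Mx1 and Mx2, Gli2 and Gli3, up to 3 called genes in each direction from each other list (interferon signalling, antiviral, MHC class I, vacuole targeting, prenylation, inflammasome, dynamin relatives and cell type markers), genes of the inducing route (1 of them is not reported here) and the 10 genes most like the members. Neighbours of clusters, Col1a1, Thy1, Sox9, Ptprc and the ligands without a row are named outside that rule. As alternatives, DESeq2 1.42.0, limma-voom (limma 3.58.1), limma on the deposited log2 values, scaling by RLE, upper quartile or total, no filter or a minimum of 10 counts, other fold limits and the omission of each library were tried.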

Additional observations from a re-analysis of the deposited data

How the results depend on the processing

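The count of members called lower was 6, with 7 without a fold limit, 5 at a limit of 2-fold and 4 with a minimum of 10 counts in each library, since Gbp9 and Iigp1 were then not tested. In all other alternatives it was 6, including each library left out, and no member was called higher. Across the alternatives in which each was tested, the log2 fold change ranged from -0.39 to -0.26 for Gbp2, -1.14 to -0.79 for Gbp3, -0.76 to -0.61 for Gbp7, -5.12 to -4.22 for Gbp9, -1.44 to -1.14 for Igtp, -1.19 to -0.98 for Irgm2 and -5.06 to -4.51 for Iigp1. That of Irgm1, never called, ranged from -0.052 to 0.061, and from -0.052 to 0.036 with a library left out, where it turned negative at -0.052 without labelled WT replicate 2 and at -0.011 without labelled KO replicate 1 or 2; the cause was not tested. Without a fold limit 8391 genes were called over the whole table, 17 of interferon signalling (7 lower, 10 higher) and 14 of MHC class I (11 lower, 3 higher). At a limit of 2-fold these were 1456 over the whole table, 4 of the relatives and 0 of MHC class I in edgeR, where 14 had an adjusted p under 0.05. These counts follow from the limit itself. No paired analysis was possible because the labels give the groups no shared replicate numbers. At the depth of these libraries the values of Gbp9 and Iigp1 in labelled KO rest on 1 to 19 counts each, and their fold changes are limited by counting error.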
